A study of Drosophila melanogaster with 15 samples.

Results

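The genes of the Drosophila phototransduction cascade described here are the opsins ninaE, Rh3 and Rh4, the phospholipase C norpA, the channels trp and trpl, the protein kinase C inaC, the scaffold inaD and the arrestins Arr1 and Arr2. They were taken as a list of 10 genes, and 8 of them had a named probeset among the 16322 probesets of the array. No probeset could be assigned to ninaE or Rh3, which were not analysed here. Total RNA of whole fly heads was hybridised to Affymetrix whole-transcript arrays for Drosophila, with 5 arrays for each of 3 genotypes. The elav/+ flies carried the elav-Gal4 driver, which is active in neurons, the v105975/+ flies carried a UAS-RNAi hairpin transgene against Clic without a driver, and the elav/v105975 flies carried both, so that the hairpin was expressed in neurons. All hairpin flies came from the single transgene v105975, and both single-transgene genotypes served as controls. The study found Clic lowered in v105975/+ too and proposes that this genotype amounts to a weaker Clic knockdown. It left v105975/+ out of its later bioinformatic analyses. The labels and methods give neither the age nor the sex of the flies. The comparisons asked whether the visual cascade differed between heads with neuronal Clic knockdown and heads with either transgene alone.

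In a fly photoreceptor, light turns rhodopsin into active metarhodopsin, which switches on a Gq protein and through it the phospholipase C encoded by norpA. Cleavage of the membrane lipid PIP2 then opens the TRP and TRPL cation channels, while an arrestin binds metarhodopsin and ends its activity. These proteins sit in the rhabdomere, a stack of microvilli, where the INAD scaffold holds TRP, phospholipase C and the eye-specific protein kinase C together. The genes are known mainly from the compound eye, whose photoreceptors are neurons and make up a sizeable part of a head.

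The values are log2 intensities that the study's authors obtained by robust multi-array average (RMA), so a difference of 1 is a factor of 2. A probeset's level is set only against the same probeset on other arrays, because brightness also depends on its probes. A gene is called changed where limma gave an adjusted p of at most 0.05 after Benjamini-Hochberg adjustment over all 16322 probesets. Nothing in the labels or methods says that arrays of the same genotype stand for separate crosses or collections. The p-values therefore measure the spread between these arrays only, and their number limits the precision. In RNA of whole heads, fewer photoreceptors and less RNA per photoreceptor cannot be told apart. Clic, the targeted gene, lay between 9.09 and 9.23 on the elav/+ arrays, between 8.85 and 9.05 on v105975/+ and between 8.28 and 8.50 on elav/v105975, with no overlap between any of the genotypes. Array medians lay between 6.16 and 6.24, and all 8 cascade genes lay far above them, with means from 10.58 for inaD to 13.36 for Arr2.

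Rh4 encodes the ultraviolet-sensitive opsin of the R7 photoreceptors of yellow ommatidia. Its probeset, 18174160, lies on chromosome 3L, minus strand, from 16845621 to 16856124 in the coordinates of the array annotation (genome build: not given in the sources used here). The elav/+ arrays read 12.07, 11.98, 12.04, 11.98 and 12.06, the v105975/+ arrays 12.25, 12.22, 12.16, 12.18 and 12.23, and the elav/v105975 arrays 12.33, 12.31, 12.32, 12.47 and 12.20. Every array of either hairpin genotype lay above every elav/+ array, and elav/v105975 replicate 5 fell within the range of v105975/+. The means were 12.02 ± 0.045 in elav/+, 12.21 ± 0.036 in v105975/+ and 12.33 ± 0.099 in elav/v105975 (SD, n = 5 each).

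The name of this probeset and that of norpA could be had only from a table of probesets that had passed the study's own test of elav/v105975 against elav/+. Both would have been without a name had they not differed there, so their difference in that comparison is given as a description without a test. Their other comparisons share the elav/+ or the elav/v105975 arrays with that choice, and their p-values there are not independent of it. The elav/v105975 level of Rh4 was 123% of elav/+, a log2 difference of 0.30. In v105975/+ it was 114% of elav/+ (95% confidence interval 106 to 122%), a log2 difference of 0.18 with an adjusted p of 0.0419 (limma). That call was lost without any single array except elav/v105975 replicates 4 and 5, with an adjusted p of up to 0.0983. Between elav/v105975 and v105975/+ the difference was 0.12 with an interval of 0.01 to 0.22, and the adjusted p was 0.503.

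norpA encodes the phospholipase C of the light response, without which the compound eye is nearly blind. Its probeset, 18211812, lies on the plus strand of the X chromosome from 4216659 to 4258913. The elav/+ arrays read 11.45, 11.46, 11.39, 11.40 and 11.44, the v105975/+ arrays 11.55, 11.57, 11.56, 11.52 and 11.57, and the elav/v105975 arrays 11.63, 11.68, 11.58, 11.66 and 11.67. The 3 genotypes did not overlap at all, in the order elav/+, v105975/+, elav/v105975, although the gap between the highest v105975/+ and the lowest elav/v105975 array was only 0.0069. norpA was the only 1 of the 8 genes with this arrangement. Gprk2, from the list of other cascade genes below, also had it, with a gap of 0.030 between its hairpin genotypes. The elav/v105975 level of norpA was 116% of elav/+, given without a test for the reason above. The v105975/+ level was 109% of elav/+ (103 to 115%), with an adjusted p of 0.0664, so it was not called. The step from v105975/+ to elav/v105975 was 0.09 on the log2 scale (interval 0.0095 to 0.17), with an adjusted p of 0.493, and it uses the elav/v105975 arrays whose high values gave the probeset its name. Among all probesets, 1.24% had every elav/v105975 array above every v105975/+ array, and 2.92% did among the 855 probesets with a mean of at least 10.

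**Figure D1:**
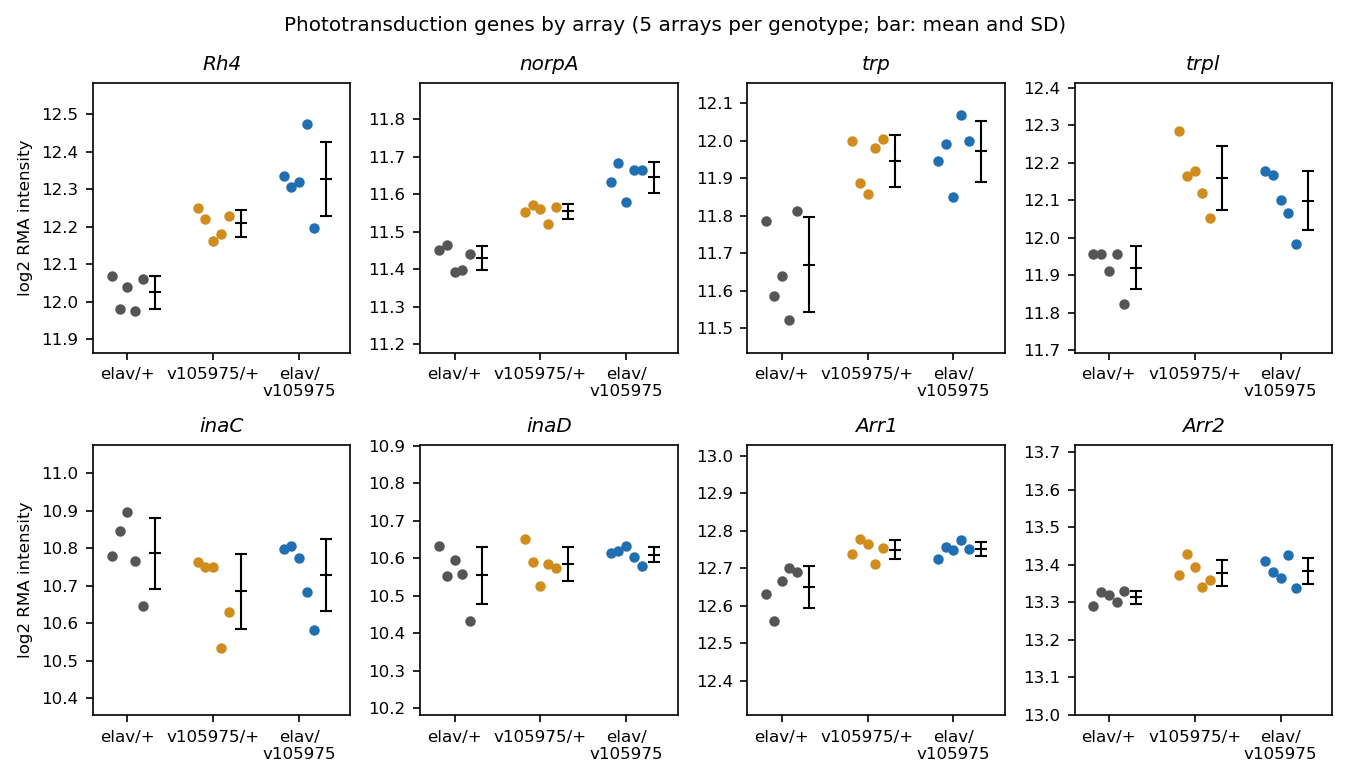
Log2 RMA intensity of each of the 8 phototransduction genes on the 15 arrays, 1 panel per gene and 1 point per array, with the mean and SD of each genotype; every panel spans the same number of log2 units, with its own range. Rh4, norpA, trp, trpl, Arr1 and Arr2 sit higher on all arrays of both hairpin genotypes than on any elav/+ array, while inaC and inaD overlap.

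trp encodes the channel that carries most of the light-induced current. Its probeset, 18193477, read 11.79, 11.59, 11.64, 11.52 and 11.81 on the elav/+ arrays, 12.00, 11.89, 11.86, 11.98 and 12.00 on v105975/+, and 11.95, 11.99, 11.85, 12.07 and 12.00 on elav/v105975. Replicates 1 and 5 of elav/+ stood above the other elav/+ arrays and gave this gene the widest spread of the 8 in that genotype (SD 0.126), but they still lay below every hairpin array. trp rose to 123% of elav/+ in elav/v105975 (112 to 135%), a log2 difference of 0.30 ± 0.063 (SE) with an adjusted p of 0.00737. It rose to 121% in v105975/+ (110 to 133%), a difference of 0.28 with an adjusted p of 0.0171. Both calls held without any single array, with adjusted p-values of at most 0.0210 and 0.0478. The hairpin genotypes overlapped with each other and differed by 0.03, with an interval of -0.11 to 0.16.

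trpl encodes the second light-gated channel, which moves out of the rhabdomere in light. Its probeset, 18147587, read 11.96, 11.96, 11.91, 11.96 and 11.82 on elav/+, 12.28, 12.16, 12.18, 12.12 and 12.05 on v105975/+, and 12.18, 12.17, 12.10, 12.07 and 11.98 on elav/v105975. The lowest array of each genotype was replicate 5, and again every hairpin array lay above every elav/+ array. trpl rose in v105975/+ to 118% of elav/+ (109 to 128%), a difference of 0.24 with an adjusted p of 0.0161 that stayed at most 0.0462 without any single array. In elav/v105975 its level was 113% of elav/+ (104 to 123%), with an adjusted p of 0.0509 that missed the threshold. Without elav/v105975 replicate 5 the adjusted p of that comparison was 0.0312, without v105975/+ replicate 1 it was 0.0398 and without v105975/+ replicate 5 it was 0.0465, so each of these omissions brought it past the threshold. The order of its means was elav/+ at 11.92, elav/v105975 at 12.10 and v105975/+ at 12.16, and the last step was smaller than the spread between arrays.

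The channels' changes were also compared within each array, as trpl minus trp. This difference changed by -0.12 between elav/+ and elav/v105975 (exact two-sided permutation p = 0.222), by -0.04 between elav/+ and v105975/+ (p = 0.690) and by -0.09 between v105975/+ and elav/v105975 (p = 0.294, exact permutation tests, n = 5 per genotype). After adjustment over the 6 comparisons of pairs that were run, no p was below 0.603. The ranges overlapped in each case, so a difference in response between the channels was not detectable with these arrays.

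inaC and inaD, the kinase and the scaffold that share a complex with TRP, were not called in any comparison. The inaC probeset, 18147533, read 10.78, 10.85, 10.90, 10.76 and 10.65 on elav/+, 10.76, 10.75, 10.75, 10.53 and 10.63 on v105975/+, and 10.80, 10.81, 10.77, 10.68 and 10.58 on elav/v105975. The inaD probeset, 18156244, read 10.63, 10.55, 10.59, 10.56 and 10.43 on elav/+, 10.65, 10.59, 10.52, 10.59 and 10.57 on v105975/+, and 10.61, 10.62, 10.63, 10.60 and 10.58 on elav/v105975. Both overlapped in every comparison, and inaC was the only member whose mean was highest in elav/+. In elav/v105975, inaC was at 96.1% of elav/+ (87.4 to 106%, adjusted p = 0.654) and inaD at 104% (97.3 to 111%, adjusted p = 0.502). In v105975/+, inaC was at 93.2% of elav/+ (84.8 to 103%, adjusted p = 0.454), and inaD differed by 0.03 on the log2 scale (adjusted p = 0.797).

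The contrast within this complex was read within arrays, with the pairs chosen after their values were seen and therefore without a test. trp minus inaD was 1.12 ± 0.164 on the elav/+ arrays and 1.36 in both hairpin genotypes, with SDs of 0.094 in elav/v105975 and 0.053 in v105975/+ (n = 5 each), a shift of 0.25 in each. norpA minus inaD shifted by 0.16 with the driver present and by 0.095 in v105975/+. inaC minus inaD moved the other way, by -0.11 and -0.13. The ranges of all these pairs overlapped between genotypes.

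Arr1 and Arr2 encode the visual arrestins, of which Arr2 is the more abundant protein. The Arr1 probeset, 18130693, read 12.63, 12.56, 12.67, 12.70 and 12.69 on elav/+, 12.74, 12.78, 12.77, 12.71 and 12.75 on v105975/+, and 12.73, 12.76, 12.75, 12.78 and 12.75 on elav/v105975. The Arr2 probeset, 18173731, read 13.29, 13.33, 13.32, 13.30 and 13.33 on elav/+, 13.37, 13.43, 13.39, 13.34 and 13.36 on v105975/+, and 13.41, 13.38, 13.36, 13.42 and 13.34 on elav/v105975. Both genes sat above every elav/+ array in both hairpin genotypes, by small margins. Arr1 was at 107% of elav/+ in elav/v105975 (101 to 114%, adjusted p = 0.129) and in v105975/+ (adjusted p = 0.178). Arr2 was at 105% in both, with adjusted p-values of 0.278 and 0.388. No call was made for either arrestin. Arr2 lay within 0.383 to 0.597 of the highest value on each array, and the files hold no mark of saturated probes, so a compression of its differences was not tested. The within-array difference Arr1 minus Arr2 changed by 0.03 in each hairpin genotype (exact two-sided permutation p = 0.405 and 0.302).

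In elav/v105975 against elav/+, then, trp was the only 1 called of the 6 genes whose names did not depend on that comparison. It rose, none fell, and 5 did not pass. Of all probesets, 4.26% were called higher and 5.17% lower, and 11.0% of the 855 with a mean of at least 10 were called higher, so 1 of 6 does not stand apart. Rh4 and norpA, counted as a description, bring the called genes to 3 of 8. All elav/v105975 arrays lay above all elav/+ arrays for 4 of the 6 genes (trp, trpl, Arr1 and Arr2), where 5.08% of all probesets and 14.0% of the bright ones had this arrangement. The median log2 difference was 0.086 over the 6 genes, 0.14 over all 8, -0.0017 over all probesets and 0.012 over the bright ones. The brightness limit was chosen after the data had been seen.

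In v105975/+ against elav/+, trp and trpl rose, 2 of the same 6 genes, none fell and 4 did not pass. The share of all probesets called higher was 2.62%, with 3.47% called lower, and the share called higher among the bright ones was 5.38%. The same 4 genes, trp, trpl, Arr1 and Arr2, had all v105975/+ arrays above all elav/+ arrays, against 3.32% of all probesets and 7.95% of the bright ones. The median was 0.082 over the 6 genes and 0.11 over all 8, beside 0.0069 over all probesets. Both comparisons use the same 5 elav/+ arrays, so the likeness of the hairpin genotypes in them is not a repeat of the result.

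In elav/v105975 against v105975/+, none of the 8 genes was called by limma, where 0.417% of all probesets and 0.936% of the bright ones were. At an unadjusted p under 0.05 there were 2, where 9.07% of all probesets had such a p. They were Rh4 and norpA, the genes whose names depended on their elav/v105975 arrays, so this count is a description, and it was 0 of the 6 others. The differences of the other genes were 0.03 for trp, -0.06 for trpl, 0.04 for inaC, 0.02 for inaD, 0.0024 for Arr1 and 0.0049 for Arr2. Each gene's interval reached less than 0.25 in either direction, so larger changes between the driven and the undriven hairpin fell outside these intervals.

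**Figure D2:**
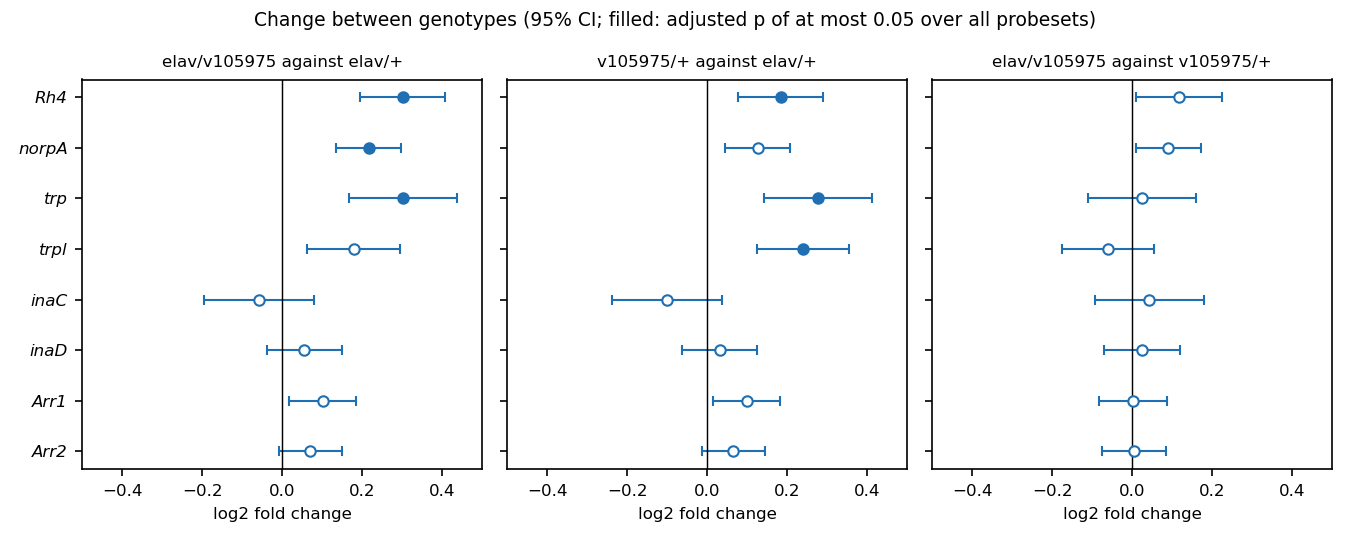
Log2 fold change of each of the 8 genes in the 3 comparisons, with 95% confidence intervals from limma; filled points had an adjusted p of at most 0.05 over all 16322 probesets, and the filled points of Rh4 and norpA in elav/v105975 against elav/+ are descriptions, since that comparison gave them their names. trp lies near 0.30 and 0.28 against elav/+, and in elav/v105975 against v105975/+ every point lies between -0.06 and 0.12.

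The rest of the visual pathway was read from 4 lists with 30 named genes: other rhodopsins, other genes of the cascade, the phosphoinositide cycle, and rhodopsin maturation with chromophore supply. In elav/v105975, 6 of the 30 rose against elav/+, 3 fell and 21 did not pass, where 4.26% of all probesets were called higher and 5.17% lower. In v105975/+, 5 rose, 2 fell and 23 did not pass, where 2.62% of all probesets were called higher and 3.47% lower. Between the hairpin genotypes none was called by limma, and 4 (Gprk1, rdgB, PIP4K and rdgC) had an unadjusted p under 0.05, beside 9.07% of all probesets. Leaving out any single array gave 3 to 7 higher and 2 to 3 lower in elav/v105975, and 2 to 4 higher and 1 to 2 lower in v105975/+.

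The other cascade genes held most of these calls. Of 12, 6 rose in elav/v105975 (Galphaq, Gprk1, Gprk2, inaF-B, ninaC and Calx) and 4 in v105975/+ (Gprk2, inaF-B, ninaC and Calx), and 11 of 12 lay above 0 in either comparison, with medians of 0.15 and 0.11. The shares called higher in elav/v105975 and v105975/+ were 4.26% and 2.62% of all probesets, and 11.0% and 5.38% of the bright ones. Several of the 12 genes, among them Gprk1, Gprk2 and Calx, had means below 10, so the bright share covers only part of this list. inaF-B, whose protein is a small partner that the TRP channel needs, had a mean of 12.09 ± 0.055 in elav/+, 12.34 ± 0.024 in v105975/+ and 12.34 ± 0.020 in elav/v105975 (SD, n = 5 each). Its differences were 0.25 in elav/v105975 (adjusted p = 9.4e-04) and 0.24 in v105975/+ (adjusted p = 0.00162), and both held without any single array.

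Gprk1, a kinase that phosphorylates rhodopsin, rose by 0.29 in elav/v105975 (adjusted p = 0.00304), with arrays from 9.47 to 9.54 against 9.14 to 9.29 in elav/+. In v105975/+ it reached 112% of elav/+, with an adjusted p of 0.0903. Gprk2, a kinase of the same family that was listed with the cascade, rose by 0.21 in elav/v105975 (adjusted p = 0.00269). A part of Gprk2 in phototransduction was not tested. The call of Gprk2 in v105975/+, 0.14 with an adjusted p of 0.0492, was lost without any 1 of the 15 arrays.

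The calls of ninaC, Calx and Galphaq lay near the threshold and were lost without some single arrays. In each of these called comparisons, all arrays of the hairpin genotype lay above all elav/+ arrays. Leaving out single arrays also lowered the calls over all probesets in elav/v105975 against elav/+, from 1539 to between 1061 and 1519. ninaC, the myosin III kinase of the rhabdomere, was at 0.20 in elav/v105975 (adjusted p = 0.0208), a call lost without elav/+ replicate 2 or 4 or elav/v105975 replicate 4 (adjusted p up to 0.0548), and at 0.19 in v105975/+ (adjusted p = 0.0391), a call lost without any 1 of 9 arrays (up to 0.0961). Calx, the sodium/calcium exchanger that clears calcium after light, was at 0.20 in each (adjusted p = 0.0195 and 0.0235), lost without elav/+ replicate 5 or elav/v105975 replicate 4 in the former (up to 0.0505), and without elav/+ replicate 2 or 5 or v105975/+ replicate 4 in the latter (up to 0.0601). Galphaq, the G protein subunit that activates phospholipase C, was at 0.15 in elav/v105975 (adjusted p = 0.0343), lost without any 1 of elav/+ replicates 2 to 5 and elav/v105975 replicates 1 to 4 (up to 0.0803), and its partner Gbeta76C was at 0.13 and was not called (adjusted p = 0.0803). rtp, a partner of the NINAC myosin, was at 0.06 and 0.01 without a call.

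Rhodopsins other than Rh4 went the other way or were not called. Rh7, a rhodopsin described in clock neurons of the brain, fell by 0.45 in elav/v105975 (adjusted p = 0.00110) and by 0.55 in v105975/+ (adjusted p = 3.4e-04), with arrays from 6.91 to 7.14 in elav/+, 6.29 to 6.64 in v105975/+ and 6.46 to 6.74 in elav/v105975. No elav/+ array overlapped with a hairpin array, and both calls held without any single array, but the probeset lay close to the array medians. Rh5, the blue-sensitive opsin of R8 cells in pale ommatidia, was at -0.28 (adjusted p = 0.0660) and -0.12 (adjusted p = 0.567). Rh2 and Rh6 were not analysed here.

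Among genes that handle rhodopsin, ninaA, the chaperone that carries the main opsin through the secretory pathway, fell by 0.21 in elav/v105975 (adjusted p = 0.0134), a call that held without any single array. Its fall of 0.19 in v105975/+ (adjusted p = 0.0328) was lost without any 1 of 7 arrays: elav/+ replicates 2, 4 and 5 and v105975/+ replicates 2 to 5 (up to 0.0857). rdgC, the phosphatase that removes phosphate from rhodopsin, rose by 0.29 in v105975/+ (adjusted p = 0.00506), while its elav/v105975 value of 0.17 was not called (adjusted p = 0.0737). Its elav/v105975 arrays all lay below its v105975/+ arrays, a difference of -0.13 with an adjusted p of 0.516. Pdh, the pigment-cell enzyme of chromophore metabolism, was at -0.05 in each comparison with elav/+ without a call. The medians of this list of 10 genes were 0.0080 and -0.012.

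In the phosphoinositide cycle, which restores PIP2 after each response, none of 6 genes was called higher. laza, a lipid phosphatase that opposes the kinase RDGA, fell by 0.38 in elav/v105975 (adjusted p = 0.0358), with overlapping arrays, and the call was lost without any 1 of 8 arrays, elav/+ replicates 1 to 4 and elav/v105975 replicates 2 to 5 (up to 0.0820). rdgA had more than 1 probeset, and the one with the highest mean was at 0.04 and 0.02 without a call. Cds, which makes CDP-diacylglycerol, was at 0.10 and 0.04, also without a call.

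**Figure D3:**
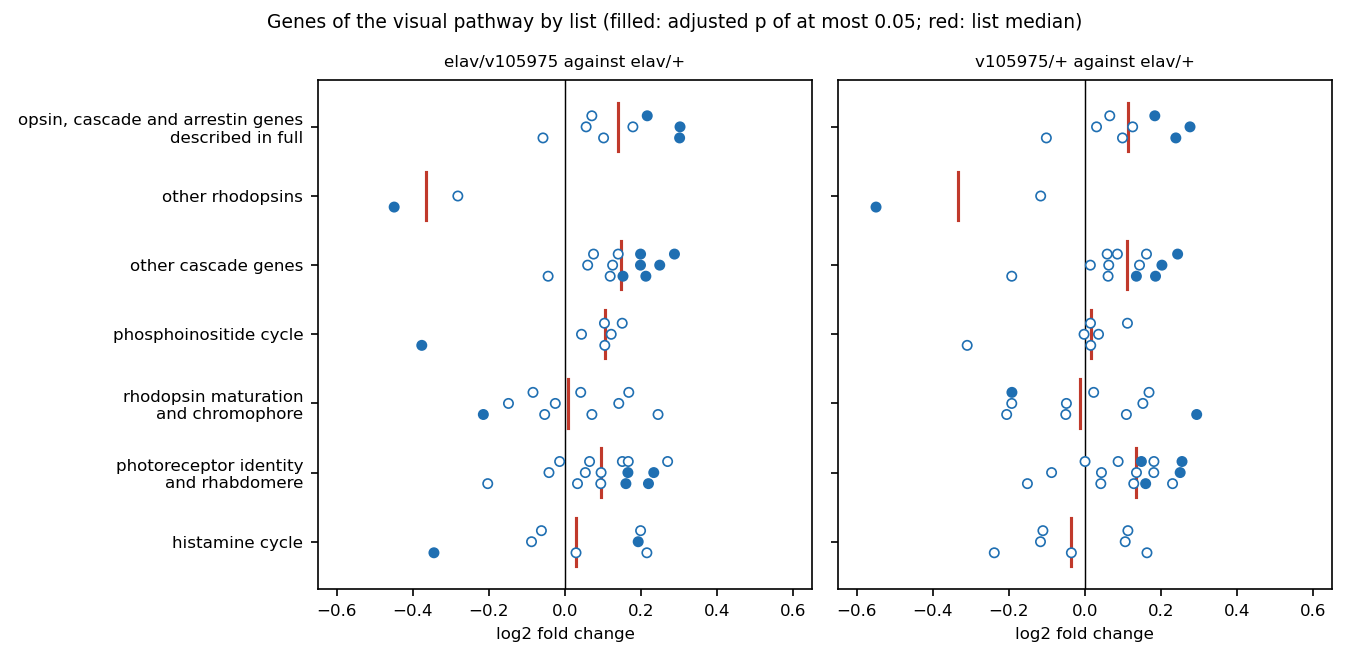
Log2 fold change against elav/+ of each gene, by list, in elav/v105975 (left) and v105975/+ (right); filled points had an adjusted p of at most 0.05 and red bars mark list medians. The medians of the other cascade genes lie at 0.15 and 0.11, both rhodopsins lie below 0, and the maturation list is centred close to 0.

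A further list held genes of photoreceptor identity and of the rhabdomere, some of which, such as pros, onecut and crb, are also used by other cells. Of 15, 4 rose in elav/v105975 (chp, oc, onecut and pros) and 4 in v105975/+ (chp, crb, so and onecut), none was called lower, and the medians were 0.095 and 0.14, beside the shares of 4.26% and 2.62% of all probesets called higher. gl, a transcription factor that photoreceptors need, stood below every elav/+ array in elav/v105975 (-0.20, adjusted p = 0.0890) and at -0.15 in v105975/+ (adjusted p = 0.269), and eya was at -0.04 and -0.09, all without a call. Without a single array the number was 2 to 5 and 1 to 4. chp, chaoptin, an adhesion protein of the photoreceptor membrane, rose by 0.23 in elav/v105975 (adjusted p = 0.00748) and by 0.26 in v105975/+ (adjusted p = 0.00559), and onecut, a transcription factor of photoreceptors and other neurons, rose by 0.22 in elav/v105975 (adjusted p = 0.00295). Each of these calls held without any single array. The calls of oc (0.16), pros (0.17), crb (0.25) and so (0.15) and that of onecut in v105975/+ (0.16) were lost without any 1 of 13, 9, 6, 9 and 6 arrays, respectively, with adjusted p-values of up to 0.111. The part of photoreceptor number in the changes of the cascade was not tested.

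Of 7 genes of the histamine cycle, the transmitter system of photoreceptors, Vmat was higher in elav/v105975 (0.19, adjusted p = 0.0273) and Balat lower (-0.34, adjusted p = 0.0421), both calls being lost without any 1 of 6 and 11 arrays (up to 0.0719 and 0.0966), and none was called in v105975/+. The shares over all probesets were 4.26% called higher and 5.17% called lower in elav/v105975. Which cells of the head gave the Vmat RNA was not tested. Hdc, which makes histamine, was at 0.03 and -0.04. Neither the histamine genes nor the photoreceptor genes had a call in elav/v105975 against v105975/+, where 1 gene of each list, Balat and oc, had an unadjusted p under 0.05.

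Markers of other head cells are given beside these values. None of 4 neuronal genes (elav, nSyb, Syt1 and brp) and none of 4 glial genes (repo, Eaat1, moody and alrm) was called against elav/+, with medians in elav/v105975 of 0.097 and -0.052 and in v105975/+ of 0.055 and -0.047. By limma without adjustment, nSyb and brp had a p under 0.05 in both comparisons and moody in elav/v105975, where 23.5% of all probesets had such a p in elav/v105975 and 18.5% in v105975/+. Of 4 fat body genes, Yp1 and apolpp were lower in elav/v105975 (-0.28 and -0.34), calls lost without any 1 of 7 arrays and without elav/v105975 replicate 2 (adjusted p = 0.0505), respectively. In v105975/+ both lay below every elav/+ array (-0.25 and -0.29) with adjusted p-values of 0.0696 and 0.0585, and the list's median was -0.27, against -0.12 in elav/v105975. Of 4 muscle genes, Mhc rose by 0.37 in elav/v105975 (adjusted p = 0.00678) and was not called in v105975/+ (0.21, adjusted p = 0.123). Act88F was at -0.21 in elav/v105975 and 0.33 in v105975/+, without a call. Of all probesets, 4.26% were called higher and 5.17% lower in elav/v105975. Cpr72Ec, a protein of the corneal lens, was at -0.86 in elav/v105975 (adjusted p = 0.0400) and -0.97 in v105975/+ (adjusted p = 0.0301), each lost without any 1 of 6 arrays, while retinin and Crys, the other lens genes, were not called.

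The eye colour gene w, which encodes a pigment transporter subunit, was the only gene of all these lists apart from Clic to be called between the hairpin genotypes. It read from 11.39 to 11.51 on the elav/v105975 arrays, from 7.02 to 7.38 on v105975/+ and from 7.31 to 7.62 on elav/+. The study describes mini-white, a form of w, as the selectable marker of the transgenes, with more copies in elav/v105975 than in elav/+. Marker and native w RNA cannot be told apart in these values, and the part of w in the values of the cascade was not tested. Of the 7 other pigment genes, 6 were not called. The remaining gene, v, was at -0.50 in elav/v105975 and -0.44 in v105975/+, values given without a test because v, like w, was named from the table that also named Rh4.

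The probesets whose values ran closest to each gene over the 15 arrays are given as a description. Since all arrays share the 3 genotypes, any probeset that differs between them in the same way will be close. For trp they were ninaC (Pearson r = 0.970), hoe2 (0.970) and gol (0.931), and for norpA they were Gprk2 (0.977), nAChRalpha5 (0.945) and IA-2 (0.940). For trpl they were CG42540 (0.944), so (0.936) and Syn (0.933), and for Rh4 CG10804 (0.952), sNPF (0.951) and CG8245 (0.942). ninaC, Gprk2 and so, close to trp, norpA and trpl, belonged to the visual lists above, and no probeset named for the other 5 genes did. inaC was closest to Acsx3 (0.918), CG10513 (0.912) and CG31321 (0.909), and inaD to GstD11 (0.964), CG42240 (0.829) and mir-4968 (0.820). Arr1 was closest to Gbp1 (0.931), beat-IIb (0.928) and VhaSFD (0.917), and Arr2 to CG1172 (0.936), CG11294 (0.908) and CG5466 (0.883).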

How the data were processed

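The deposited table holds 1 log2 value for each probeset and array, which the authors computed by RMA (background correction, quantile normalization and summary over probes), and the submitters' processing notes name oligo 1.44.0. Because quantiles were equalised, shifts common to most transcripts are invisible here. The fold changes and p-values in the study's supplementary tables were not used.

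All 16322 probesets of the 15 arrays were fitted in R 4.3.3 by the default workflow of limma 3.58.1, with Benjamini-Hochberg adjustment and a threshold of 0.05. Within-array pairs and single genes were tested by exact permutation of all 252 divisions of 10 arrays. The scripts were tested on simulated data.

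Platform annotation gave 1 symbol to 13441 probesets, several to 555 and none to 2326. A further 164 names came from a partly held supplementary table in probeset order (including Rh5, ninaA, ninaC, Crys, Eaat1, Syt1 and Mhc), and 45 from a partly held table of probesets that passed the study's test (Rh4, norpA, w and v). Planned pairs with ninaE or Rh3 were not run.

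The genes and lists were chosen with earlier results of these data known. Named were every cascade gene, each called gene of the other lists, up to 2 uncalled genes per list, Clic, w and the 3 closest probesets per gene. Alternatives were array weights, an intensity trend, a robust prior, fits of 10 arrays, a replicate block, another centring or quantile step, a filter on the dimmest 25% of probesets, adjustment over probesets with a symbol, a threshold of 0.01, and each array left out.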

Additional observations from a re-analysis of the deposited data

Results flagged for a closer look

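The difference between elav/v105975 and v105975/+ in w was picked out because the effect against elav/+ was not the same in the genotypes that carry the hairpin: w stood 3.98 above elav/+ in elav/v105975 and at -0.30 in v105975/+, and the difference itself was 4.28 ± 0.071 (log2, SE, limma adjusted p = 5.2e-15), with all 5 elav/v105975 arrays above all others. The probeset was named from the table of probesets that passed the study's elav/v105975 test, so this p is not independent of the choice, and w also stands for the marker of the transgenes. The value of -0.30 was called at an adjusted p of 0.0212 and lost its call without elav/+ replicate 4 or 5 or v105975/+ replicate 1 or 2 (up to 0.0569). For the 8 cascade genes, 24 groups of 5 arrays were searched for an array far from the others. None had one, although chance alone would mark about 1 in 20 groups.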

How the results depend on the processing

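The number of cascade genes called in elav/v105975 against elav/+ was 3, and it was 1 with adjustment over probesets with a platform symbol, which leaves out Rh4 and norpA, 5 with an intensity trend, and 3 to 4 without single arrays. Since Rh4 and norpA owe their names to that comparison, the count without them is the one to read: 1 of 6, 3 with the trend and 1 to 2 without single arrays. The settings moved the calls over all 16322 probesets too. There, 695 were called higher by the default workflow, 891 with the trend and 473 to 682 without single arrays. trpl crossed the threshold with array weights (adjusted p = 0.0211), with the trend (0.0194) and without the dimmest probesets (0.0309), over a range of 0.0194 to 0.122, and Arr1 with the trend (0.0465, range 0.0465 to 0.259). In v105975/+ against elav/+ the number was 3, 0 at a threshold of 0.01 and 2 to 3 without single arrays (2 of 6 without Rh4 and norpA, also without any single array). Over all probesets, 428 were called higher in v105975/+ by the default workflow, 555 with the trend and 283 to 423 without single arrays. norpA was called there with array weights (0.0471), the trend (0.0140), a further quantile step (0.0120) and without the dimmest probesets (0.0342), over a range of 0.0120 to 0.147. The causes were not tested. In elav/v105975 against v105975/+ no setting called any of the 8 genes. Array weights turned the near-zero differences of Arr1 (-0.0060) and Arr2 (-0.0015) there, and single arrays moved them over -0.0069 to 0.0094 and -0.0054 to 0.017. For Arr1 minus Arr2, a further quantile step gave 0.084 in elav/v105975 and 0.094 in v105975/+ against elav/+, past 0.05 without adjustment (exact permutation p = 0.0317 and 0.0238); without single arrays it ran from 0.0050 to 0.047 and from 0.0074 to 0.049, and from -0.014 to 0.011 between the hairpin genotypes. trpl minus trp in v105975/+ ran from -0.098 to 0.0086. Of 594 further values of single genes, 556 kept direction and side of the threshold. Over all probesets, v105975/+ against elav/+ called 995, but 628 without v105975/+ replicate 1 and 639 without elav/+ replicate 3, and elav/v105975 against v105975/+ called 68, or 45 over probesets with a symbol. Over all probesets, same-numbered arrays did not pair (r from -0.076 to 0.176, 2 of 15 closest to their own number). Single genes could still share an order by number: replicate 5 was lowest for trpl, and replicates 4 and 5 for inaC, in every genotype. With the number as a replicate block, trpl was called in elav/v105975 (0.0239), bringing the count to 4. Rh4 was then not called in v105975/+ (0.0820), leaving 2. Of the 30 other pathway genes, settings other than leaving out arrays called 4 to 11 higher and 2 to 4 lower in elav/v105975, and 2 to 6 and 1 to 3 in v105975/+. All differences rest on quantile-normalized intensities, and no raw scans were used.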
